A study of Mus musculus with 12 samples.

Results

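Granins are acidic secretory proteins that gather with peptide precursors in the trans-Golgi network and are packed with them into dense-core vesicles. There the prohormone convertases cut precursors after basic residues, carboxypeptidase E trims the exposed ends, and small binding proteins such as 7B2 and proSAAS hold the convertases in check until the vesicle matures. Sensory neurons use this route to make neuropeptides such as CGRP, galanin and substance P. The genes described here were chosen by name: Chga, Chgb, Scg2, Scg3 and Vgf (granins and the granin-like VGF), Pcsk1 and Pcsk2 (the convertases PC1/3 and PC2), Cpe (carboxypeptidase E), and Pcsk1n and Scg5 (proSAAS, which binds PC1/3, and 7B2, which binds PC2). All 10 had a row among the 14675 gene IDs of the deposited count table.

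RNA came from adult mouse dorsal root ganglia (DRG) of genotype RPL22HA+/+;Advillin-Cre+, in which Cre under Advillin control, active in sensory neurons, switches on an HA-tagged ribosomal protein. Input is total RNA of the lysate, other cells included, and IP is the RNA recovered with an antibody against HA. Both fractions were taken from a group given AAV-shGpr151 (a hairpin against Gpr151, delivered by virus) and from a group given AAV-shGpr151 plus AAV-e5'UTR (called e5UTR here), whose insert the labels do not describe. Every group therefore carried the hairpin. By the design text the neurons were cultured and the sciatic nerve had been injured beforehand; by the protocol the DRGs were lysed fresh. The 4 groups had 3 deposited columns each, with 975403 to 985277 estimated counts per column in input and 1381220 to 1517685 in IP.

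The 3 columns of a group were nearly parts of 1 pool of reads: the median gene's chi-square between columns was 1.08 to 1.12 times the value from counting, and 7.2% to 7.7% of genes had p under 0.05. Each group was counted as 1 sample, a pool. IP against input thus compares 2 pools with 2, and each e5UTR comparison has 1 pool per group. The 2 pools of a fraction differ in treatment, so they are not replicates of a condition. The main fit of IP against input did not pair pools by treatment, and the difference between treatments enters its spread. Nothing in the labels says how many mice a pool holds.

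Upstream sequence was available for 8 of the 10 genes, as RefSeq windows of the GRCm38.p6 build from 250 bases before to 50 bases after each gene's start. The cAMP response element (CRE), the palindrome TGACGTCA that the factor CREB recognises, was searched on both strands, as was its shorter core TGACG, which every CRE also contains. The CRE was found in 3 of the 8 windows and in 1.79% of all 32851 windows, and the core in 7 of the 8 and in 20.8% of all. Of the other motifs searched, the TATA box TATAAA was in 1 of the 8 (Chga; 13.6% of all windows) and the AP-1 site TGAGTCA in 1 (Pcsk1n; 5.2% of all). Only exact matches were counted, so a near match to the full CRE, as in Chga, counts as the core alone. The stretches that hold the match upstream of the start are shown for the 3 genes with an exact CRE. They are also shown for Chga, Scg3, Pcsk2 and Scg5, the last of which went the opposite way from the rest in the results. Capitals mark the match, and each is read 5′ to 3′ on the gene's strand.
Scg2, chr1:79440076-79440105, minus strand: ggctgagccggTGACGTCAgcgtggaatgc
Chgb, chr2:132781559-132781588, plus strand: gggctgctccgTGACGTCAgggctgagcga
Pcsk1, chr13:75089768-75089797, plus strand: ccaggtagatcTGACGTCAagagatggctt
Chga, chr12:102554885-102554914, plus strand: ggggcggtcctaTGACGtaatttcctgggt
Scg3, chr9:75684069-75684098, minus strand: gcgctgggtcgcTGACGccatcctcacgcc
Pcsk2, chr2:143546087-143546116, plus strand: ctggcgggcgcgCGTCAcccgggctggcgc
Scg5, chr2:113829249-113829278, minus strand: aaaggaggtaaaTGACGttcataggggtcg
Counted from the gene start, the full CRE began at −68 in Scg2, −72 in Chgb and −78 in Pcsk1, which is nearly the same distance in these genes. In Pcsk2 the core lies on the other strand and reads CGTCA. These are matches of letters, and the counts do not show whether a factor binds there.

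The level of each mRNA in tagged-ribosome RNA was compared with that in total RNA of the lysate, other cells included. The ratio therefore joins how far an mRNA is restricted to sensory neurons with how strongly their ribosomes carry it. The 2 cannot be told apart here. Vgf, Pcsk1n, Pcsk1, Scg2, Cpe, Chga, Chgb and Scg3 were higher in IP, by 12.6-fold down to 2.11-fold, Scg5 was lower, at 0.261 of the input level, and Pcsk2 did not pass the test. Counts were scaled by TMM, edgeR's trimmed mean of log ratios, and given as CPM, the count scaled to a library of fixed size. A gene passed at an adjusted p under 0.05 in edgeR's quasi-likelihood test on the 4 pools. Of all 8085 genes tested, 69.7% passed (33.5% with the higher level in IP and 36.2% with the lower), so a call is common and the size of a ratio says more than the call. The median log2 ratio was 1.67 over the 10 genes and 0.06 over all genes. Chga, Chgb and Pcsk1 passed the filter on low counts through their IP columns only, so these 3 could be tested only because they were high there. Their own tests, and the count and median over the 10 genes, are descriptive. In such bulk RNA, fewer cells of a type and less RNA per cell cannot be told apart.

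**Figure D1:**
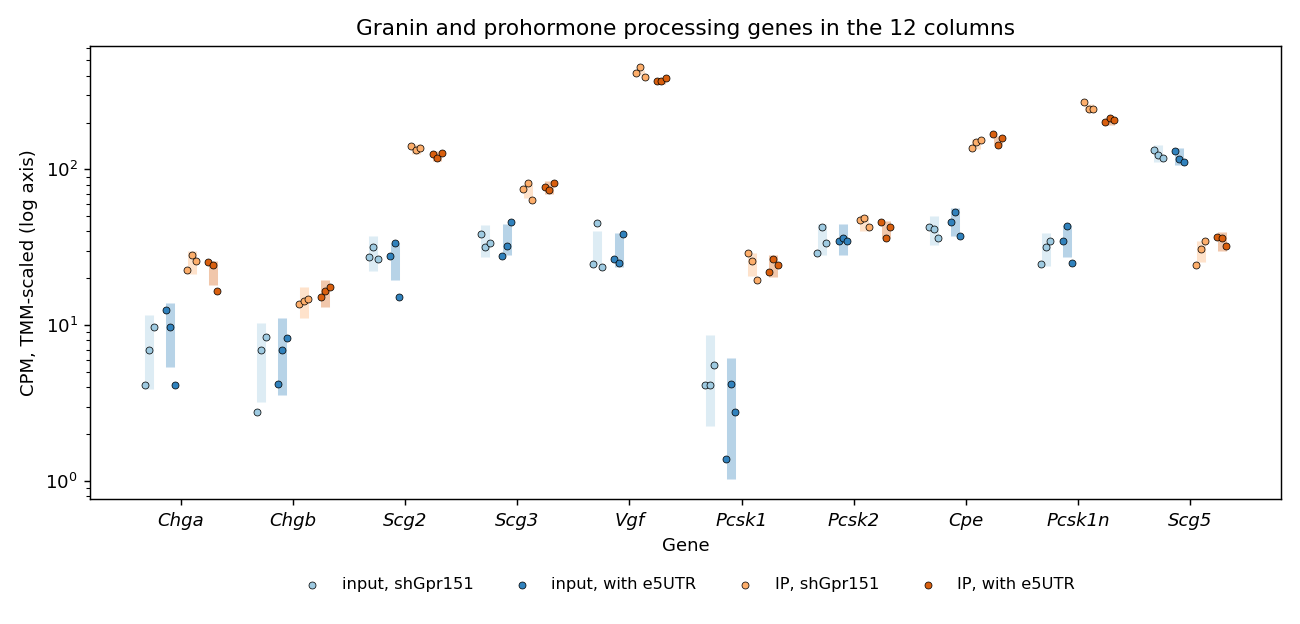
Level of each gene in the 12 columns (points, TMM-scaled CPM on a log axis), with the exact Poisson 95% interval of each pool (shaded bars), for input (blue) and IP (orange), without and with e5UTR. The IP points lie above the input points for 8 genes, the Pcsk2 points overlap, and those of Scg5 lie below.

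Among the granins, Vgf stood out. VGF is a neurotrophin-inducible precursor of several peptides, and its mRNA had 18, 33 and 17 counts in the input columns without e5UTR and 19, 18 and 28 in those with it. The IP columns held 788, 867 and 747 counts without e5UTR, and with it 758, 761 and 793. The lowest IP column stood at 369 CPM and the highest input column at 45.7 CPM. The pools were at 31.9 CPM (95% interval 24.7 to 40.4) and 30.6 (23.6 to 39.0) in input and at 418 (401 to 435) and 370 (355 to 385) in IP. The ratio of IP to input was 12.6-fold (log2 3.65 ± 0.15 SE, adjusted p = 1e-10, edgeR), the 22nd highest of 8085 genes. Vgf made up 9.16% and 8.78% of the counts of the 10 genes for input and 35.9% and 34.7% for IP.

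Secretogranin II, the precursor of secretoneurin, is encoded by Scg2. It had 20, 23 and 19 counts, then 20, 24 and 11, in the input groups without and with e5UTR, and 266, 253 and 262, then 257, 243 and 263, in the IP groups. No input column reached any IP column, and the fitted ratio was 4.68-fold (log2 2.23 ± 0.16, adjusted p = 1.7e-08, edgeR). Chga and Chgb, the chromogranins, which drive the packing of the vesicle core, were sparse in input. Chga had 3, 5 and 7 and then 9, 7 and 3 input counts against 43, 54 and 49 and then 52, 50 and 34 in IP. Chgb had 2, 5 and 6 and then 3, 5 and 6 against 26, 27 and 28 and then 31, 34 and 36. Their fitted ratios were 2.94-fold (log2 1.56 ± 0.25, adjusted p = 9.1e-05, edgeR) and 2.38-fold (log2 1.25 ± 0.28, adjusted p = 0.0013), both without overlap between fractions. Both genes passed the low-count filter through IP columns only, so these results are descriptive. Scg3, whose product ties chromogranin A to the vesicle membrane, rose least among the genes that passed. It went from 28, 23 and 24 and then 20, 23 and 33 counts in input to 142, 156 and 121 and then 158, 152 and 169 in IP (2.11-fold, log2 1.07 ± 0.15, adjusted p = 2.3e-05, edgeR).

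The convertases differed. Pcsk1, which encodes the early-acting PC1/3, had 3, 3 and 4 and then 1, 3 and 2 counts in input and 55, 49 and 37 and then 45, 55 and 50 in IP. Its fractions did not overlap, and its ratio was 6.41-fold (log2 2.68 ± 0.30, adjusted p = 2.2e-06, edgeR). Pcsk1 passed the low-count filter through IP columns only, so its test, its lack of overlap and its ratio to Pcsk2 below are descriptive. Pcsk2, which encodes PC2, the enzyme that carries precursors to their final peptides, had 21, 31 and 24 and then 25, 26 and 25 counts in input and 89, 92 and 81 and then 94, 75 and 88 in IP. On the scaled level its columns overlapped, with 29.0 to 42.9 CPM in input and 36.4 to 48.5 CPM in IP. Its log2 ratio was 0.28 ± 0.17 (adjusted p = 0.149, edgeR on the pools). With the 12 columns as samples it passed at 0.31 ± 0.13 (adjusted p = 0.0254), so its call depends on what is taken as a sample. The count ratio of Pcsk1 to Pcsk2, which no scaling of a library can move, was 4.09 times as high in IP as in input without e5UTR (exact 95% interval 2.02 to 9.13) and 7.39 times with it (3.13 to 21.2). Pcsk2 also overlaps the antisense RNA genes Pcsk2os1 and Pcsk2os2 in the RefSeq annotation. The Pcsk2os1 pools held 6 and 1 counts for input and 5 and 3 for IP, and the sources used here do not say whether the counting used strand.

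Carboxypeptidase E removes the basic residues that the convertases leave behind. Cpe had 31, 30 and 26 and then 33, 38 and 27 counts in input and 258, 285 and 295 and then 345, 294 and 327 in IP. The columns did not overlap, and the ratio was 3.45-fold (log2 1.79 ± 0.14, adjusted p = 7.5e-08, edgeR). The count ratio of Cpe to Pcsk2 was 2.79 times (1.96 to 3.97) and 2.91 times (2.06 to 4.10) that of input, without and with e5UTR.

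The genes of the 2 convertase-binding proteins went in opposite directions. Pcsk1n had 18, 23 and 25 and then 25, 31 and 18 counts in input and 515, 463 and 467 and then 412, 442 and 428 in IP, a ratio of 6.93-fold (log2 2.79 ± 0.16, adjusted p = 2.5e-09, edgeR) and the 100th highest of all genes. The annotated gene overlaps Eras, which had no row under that symbol in the count table. Scg5 had 96, 89 and 85 and then 94, 83 and 80 counts in input but only 46, 59 and 66 and then 76, 75 and 66 in the deeper IP libraries. All 6 IP columns (24.3 to 37.0 CPM) lay below all 6 input columns (111 to 133 CPM), and the log2 ratio was −1.94 ± 0.14 (0.261 of the input level, adjusted p = 2.7e-08, edgeR).

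Scg5 thus made up 36.4% and 34.7% of the 10 genes' counts for input and 2.56% and 3.26% for IP. Its count ratio to Pcsk2, the mRNA of the enzyme its product binds, was 3.55 and 3.38 in input and 0.653 and 0.844 in IP, which is 0.184 (0.132 to 0.256) and 0.25 (0.18 to 0.345) of the input value. For Pcsk1n and its partner Pcsk1 the same measure was 1.55 (0.696 to 3.13) without e5UTR and 0.693 (0.242 to 1.62) with it, so a shift between these mRNAs was not detectable at this depth. Columns without overlap were themselves frequent, since in 25.3% of the tested genes all 6 IP columns were above all 6 input columns and in 30.4% all were below.

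**Figure D2:**
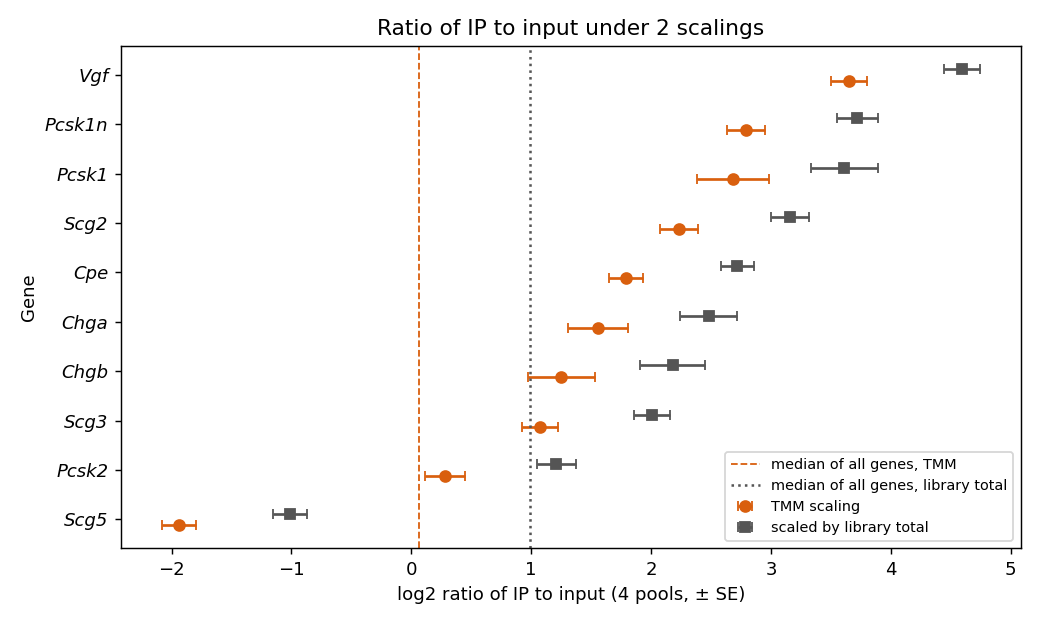
Log2 ratio of IP to input for each gene (x axis, fit of 4 pools, bars ± SE), with TMM scaling (circles) and scaling by library total (squares); vertical lines mark the median of all 8085 genes under each scaling (0.06 and 0.99). Vgf is highest and Scg5 is the only gene of the 10 below 0, under both scalings.

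The level of the zero line depends on the scaling. Input libraries had TMM factors of 0.722 and 0.725 and IP libraries 1.388 and 1.375, and scaling by library total moved log2 ratios up by 0.93 at the median, with 62.2% of all genes then higher and 23.4% lower. Under it Vgf stood at 24.0-fold, Pcsk1n at 13.2-fold, Scg3 at 4.02-fold and Scg5 at 0.497 of input (log2 −1.01 ± 0.14, adjusted p = 2.5e-05, edgeR), and Pcsk2 passed at 2.31-fold (log2 1.21 ± 0.16, adjusted p = 1.7e-05). The share of the 10 genes in all counts was 0.0251% and 0.0253% for the input pools against 0.161% and 0.146% for the IP pools.

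Input also carried RNA of other cells. The summed level of 8 satellite glia markers was 1460 and 1510 CPM for input and 268 and 257 for IP, that of 14 Schwann cell markers 1650 and 1670 against 536 and 507, and that of 13 macrophage markers 261 and 274 against 117 and 126. Fibroblast markers (10 genes) summed to 1040 and 1030 CPM against 392 and 459, endothelial and mural markers (8) to 78.3 and 89.9 against 61.4 and 72.6, and erythroid markers (5) to 2360 and 2320 against 2.26 and 3.04. The sensory neuron markers (22) went from 5160 and 5130 CPM to 9490 and 9960, with Avil, whose control region drives the Cre, 3.80-fold higher in IP (log2 1.92 ± 0.17, adjusted p = 2.6e-07, edgeR). Of the markers in the table, 3 and 2 erythroid genes were at 0 in the IP pools without and with e5UTR, 1 Schwann cell gene was at 0 in each, and 1 endothelial or mural gene in the latter. Of the tested markers, 13 of 22 neuronal genes were higher and 6 lower, against 1 and 4 of 6 for satellite glia, 0 and 9 of 12 for Schwann cells, 1 and 8 of 10 for macrophages, 1 and 6 of 9 for fibroblasts, 0 and 0 of 2 for endothelial and mural cells and 0 and 4 of 4 for erythroid cells. By library total these counts became 16 and 2 for neuronal genes, 3 and 2 for macrophages, 3 and 4 for fibroblasts, 3 and 7 for Schwann cells and 2 and 0 for endothelial and mural cells. The low-count filter limits these counts. The 4 erythroid genes and 3 Schwann cell, 3 macrophage, 2 satellite glia, 1 fibroblast and 3 neuronal genes passed it through input columns only. Another 5 neuronal, 3 macrophage, 2 Schwann cell, 1 satellite glia and 1 endothelial or mural gene passed through IP columns only. Such genes could be tested only because they were high in that fraction, so the counts are descriptive. The part of non-neuronal cells in the high input level of Scg5 was not tested. Gpr151, the target of the hairpin, stood at 16.4 and 13.7 CPM for input (35 and 29 counts) and at 18.8 and 20.5 CPM for IP (108 and 128 counts), with log2 0.38 ± 0.22 and adjusted p = 0.136 (edgeR). With e5UTR its change was 0.13 for IP (adjusted p = 0.766) and −0.26 for input (0.987), and with the hairpin in every group its effect cannot be seen. Rpl22, the tagged gene, was lower in IP by TMM (log2 −0.83 ± 0.12, adjusted p = 2.2e-05, edgeR) and at 0.10 by library total (adjusted p = 0.41). Between the IP libraries it was higher with e5UTR (0.20 ± 0.05, adjusted p = 0.0044, edgeR on the 12 columns). In input its change was 0.05 (0.987).

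Other genes of the same route were taken from lists by function. Among 34 tested genes of dense-core vesicle formation and release, 21 were higher in IP and 1 was lower, with a median log2 of 1.07 (18 of the 34 passed the low-count filter through IP columns only). Syt4, a vesicle synaptotagmin, was 5.79-fold higher (log2 2.53 ± 0.14, adjusted p = 1e-09, edgeR). The fusion protein gene Snap25 was the gene that was lower, at log2 −1.21 ± 0.13 (−0.27 by library total, where 0 of the list were lower). Of 7 other processing enzymes tested, 2 were higher and 4 lower (median −0.96), and by library total 3 and 3 (median −0.04). Cpd was among the 2 of these 7 that passed the low-count filter through IP columns only. Furin, the convertase of the general secretory route, was at log2 −2.24 ± 0.15 (adjusted p = 1.1e-08, edgeR) and the site-1 protease gene Mbtps1 at −1.51 ± 0.20, whereas the cathepsin gene Ctsb was 3.01-fold and the carboxypeptidase gene Cpd 2.03-fold higher. All of these 4 directions held by library total.

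The substrates were divided. Of 13 tested neuropeptide and trophic factor precursors, 7 were higher and 4 lower in IP (median 0.32), and by library total 10 and 2 (median 1.26). Ucn and Penk were among the 3 of the 13 that passed the low-count filter through IP columns only, so they could be tested only because they were high there. Ucn, the urocortin precursor, was 4.61-fold higher (log2 2.20 ± 0.33, adjusted p = 4.2e-05, edgeR) and Penk, the enkephalin precursor, 3.01-fold (1.59 ± 0.26). Tac1, the substance P precursor, stood at log2 −2.32 ± 0.22 and Gal, the galanin precursor, at −1.66 ± 0.11, which is close to the value of Scg5. A difference between these lists and all other genes was not tested.

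**Figure D3:**
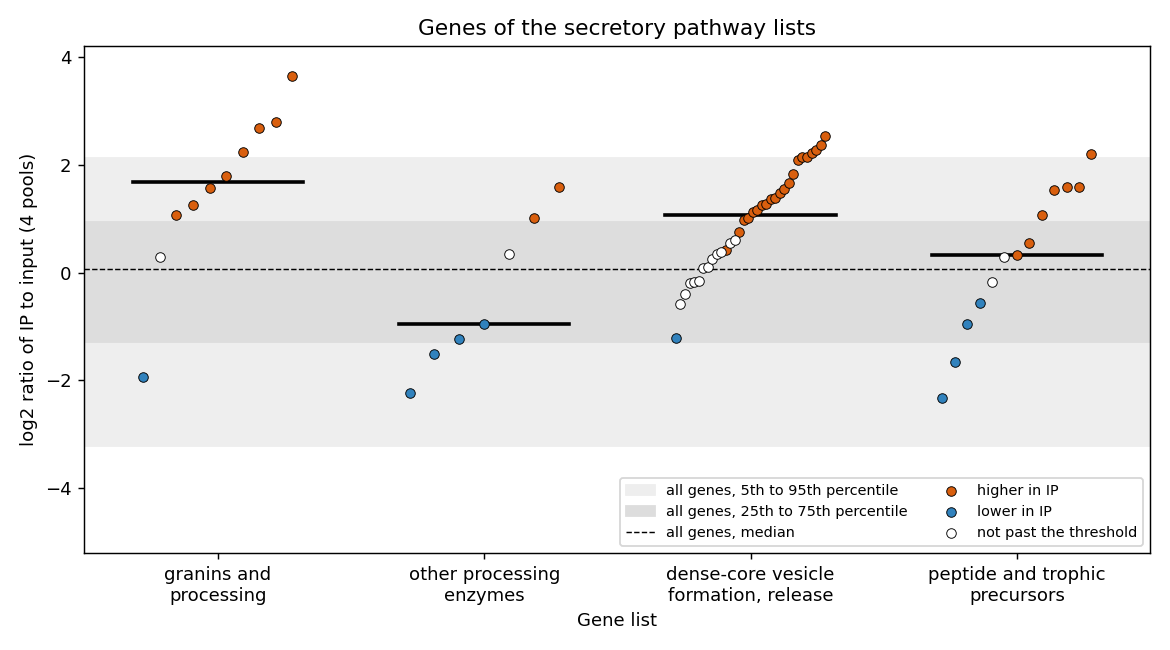
Log2 ratio of IP to input (y axis, fit of 4 pools) for each tested gene of the 4 lists (points; orange higher, blue lower, white not past the threshold), with each list's median (bar) and the spread over all 8085 genes (grey bands and dashed median). The 10 granin and processing genes reach from −1.94 for Scg5 to 3.65 for Vgf.

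The ratio of IP to input was also taken within each treatment. For Vgf it was 13.1 (95% interval from counting 10.3 to 16.9) in shGpr151 and 12.1 (9.44 to 15.7) with e5UTR, for Scg2 4.67 (3.61 to 6.15) and 4.71 (3.58 to 6.31), for Cpe 3.57 (2.86 to 4.51) and 3.35 (2.72 to 4.16), and for Scg5 0.235 (0.193 to 0.286) and 0.287 (0.238 to 0.345). The widest gaps were in Pcsk1, with 5.23 (2.76 to 11.1) and 8.49 (3.81 to 23.5), Chga, with 3.61 (2.12 to 6.62) and 2.43 (1.5 to 4.16), and Pcsk1n, with 8.12 (6.34 to 10.6) and 5.88 (4.65 to 7.54). The interaction of fraction and e5UTR, fitted by edgeR on the 12 columns, called 5.11% of all genes and 0 of the 10, with an unadjusted p under 0.05 in 0 of them and adjusted p from 0.37 to 0.989. DESeq2 also called 0, but it gave no adjusted p for Chga, Chgb and Pcsk1 and so could not call them. Both tests rest on columns of single pools and compare these libraries, not the conditions.

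In ribosome-bound RNA, Pcsk1n was lower in the library with e5UTR than in the library without it, and the other 9 genes did not pass. This sets 1 pool against 1, its p-values measure only the spread between columns of a pool, and it has no replicate check. The same test on the 12 columns called 11.0% of all genes (381 higher and 505 lower, and 93 higher and 542 lower with DESeq2). The 1 call among the 10 genes is near that share. The Pcsk1n columns ran from 244 to 273 CPM without e5UTR and from 201 to 215 CPM with it. The ratio of the pools was 0.816 (95% interval from counting 0.756 to 0.88, log2 −0.29 ± 0.07, adjusted p = 0.0034, edgeR), and the adjusted p was 0.00164 with DESeq2. In input the Pcsk1n ratio was 1.13 (0.797 to 1.59), and the interaction for this gene was log2 −0.46 ± 0.24 (adjusted p = 0.37), so a difference between the fractions was not shown. Vgf was next, with 393 to 457 CPM without and 369 to 386 CPM with e5UTR and a ratio of 0.885 (0.835 to 0.937). Its log2 change of −0.17 ± 0.06 did not pass (adjusted p = 0.0583, edgeR) but did under 11 of 17 other settings, DESeq2 (adjusted p = 0.0317) and library total (0.0315) among them. The 6 runs that each left out an IP column were also among them. In these runs genes called higher fell from 381 to between 93 and 109, and genes called lower rose from 505 to between 613 and 644. Calls over all genes thus moved towards lower, and the move was not particular to Vgf. Its cause was not tested. All settings share the same reads, and their number adds no evidence. Scg5 went from 29.7 to 34.7 CPM, a ratio of 1.17 (0.95 to 1.43). Over the other 7 genes the ratio ran from 0.856 for Chga (0.673 to 1.09) to 1.15 for Chgb (0.847 to 1.56). Of these, the interval lay below 1 for Scg2 (0.898, 0.812 to 0.994), which did not pass (adjusted p = 0.315, edgeR).

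**Figure D4:**
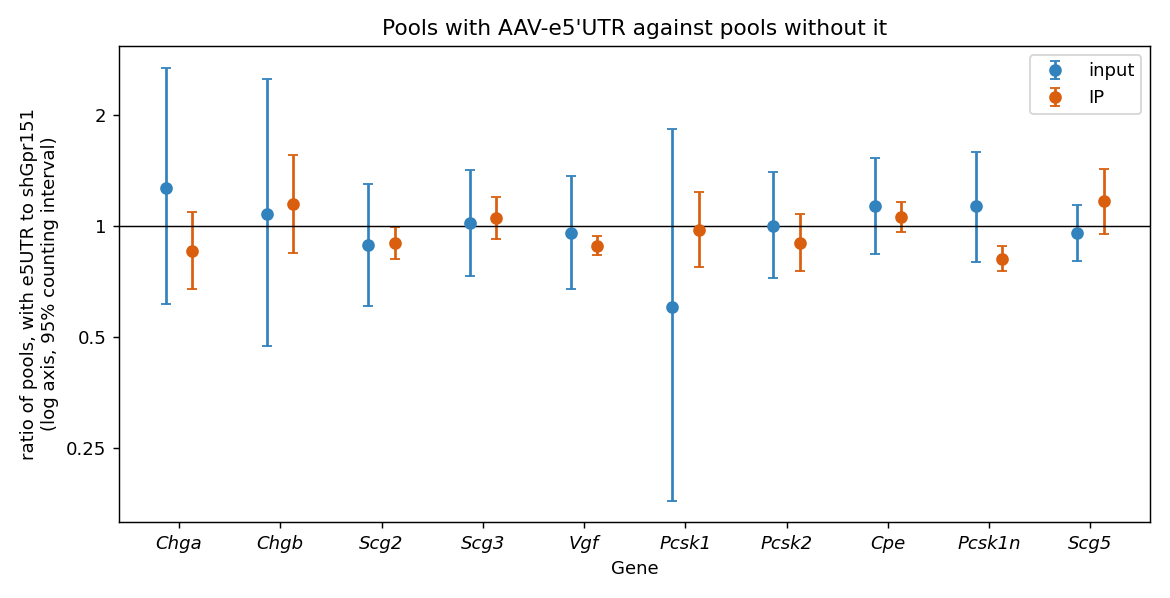
Ratio of the pool with e5UTR to the pool without it for each gene (y axis, log scale, 95% interval from counting error only) in input (blue) and IP (orange). The IP ratios lie between 0.816 for Pcsk1n and 1.17 for Scg5, and the intervals are widest for the sparse input counts of Pcsk1, Chga and Chgb.

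In total RNA no difference with e5UTR was detectable for any of the 10 genes, while 0.198% of all genes were called. The log2 changes ran from −0.71 for Pcsk1 (10 and 6 pooled counts, ratio 0.603 with an interval of 0.18 to 1.83) to 0.34 for Chga (15 and 19 counts, 1.27, 0.613 to 2.69). The tightest interval was that of Scg5, with 270 and 257 counts and a ratio of 0.956 (0.803 to 1.14). EdgeR called 0 of the 10 with adjusted p from 0.987 to 0.998, 0 had an unadjusted p under 0.05, and DESeq2 called 0.

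Between the IP libraries, 2 of 7 other listed enzymes and 3 of 13 precursors were called, each higher in the library with e5UTR. Of the 34 dense-core vesicle genes 0 were called. Of all 8085 genes, 381 were called higher and 505 lower (11.0% in either direction). The 381 fell to 93 with DESeq2 and to between 93 and 109 without any 1 IP column. Whether the listed genes passed in those runs was not examined. Pam, which amidates peptide ends, had 91 and 166 pooled counts (log2 0.75 ± 0.20, adjusted p = 0.0131, edgeR) and Ctsl 3210 and 3758 (0.11 ± 0.03, adjusted p = 0.0276). Npy had 3942 and 4924 (0.20 ± 0.03, adjusted p = 5.6e-05), Gal 3101 and 3914 (0.22 ± 0.04, adjusted p = 0.00029) and Calca, the CGRP precursor, 2069 and 2618 (0.22 ± 0.05, adjusted p = 0.0019). In input 0 of these 3 lists' genes were called. Of the same genes the interaction was called for Gal (log2 0.24 ± 0.06, adjusted p = 0.0076) and Npy (0.32 ± 0.08, adjusted p = 0.0145).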

How the data were processed

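The values deposited by the authors are estimated counts for each gene, already rounded to whole numbers, and the 12 columns were matched to samples by name. Oxford Nanopore cDNA-PCR libraries were sequenced, per the labels' protocols, and per the submitters' processing notes minimap2, Salmon and the builds GRCm39 and mm39 were used. Their versions and settings are not given in those notes. Symbols matched 13191 gene IDs (89.89%).

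Columns of a group were summed into a pool. IP against input was tested with edgeR 4.0.16 (R 4.3.3; TMM, glmQLFit, filterByExpr with minimum count 10 and minimum total 15, BH over 8085 genes, threshold 0.05) on the 4 pools (biological coefficient of variation 10.31%). The e5UTR contrasts and the interaction used 1 model of group means over the 12 columns (2.577%). Their p-values measure only the spread between columns. Poisson, Clopper-Pearson and conditional odds ratio intervals are at 95% and cover counting error only, since PCR reads are not independent molecules. Alternatives were DESeq2 1.42.0, library totals, other filters, blocks and leaving out columns or pools. The fits were also run on simulated counts, with a spread set near the fitted one and columns drawn independently. That run could not test whether columns of a pool act as replicates, and its outcome is not given here. The genes named are the 10 members, and from each list at most the 2 highest and 2 lowest genes called in IP against input and at most 4 called with e5UTR. Avil, Rpl22 and Gpr151 were added as checks of the labels, and Pcsk2os1 and Ap1s1 for their place in the annotation, after their values were seen. A gene that falls under this rule is not reported here. Members, lists, motifs and tests were chosen with earlier results of these data known.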

Additional observations from a re-analysis of the deposited data

How the results depend on the processing

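Of the 10 genes, 8 or 9 were higher in IP under each alternative run, and 1, Scg5, was lower (log2 −1.97 to −1.83 without a column or pool). The gene that changed sides was Pcsk2, which passed with the 12 columns as samples, in that fit with the replicate block (log2 0.31, adjusted p = 0.033), by library total (1.21), and without the pool of IP with e5UTR (0.44, adjusted p = 0.0394). Over all genes, library totals gave 5031 higher and 1895 lower. Leaving out columns or pools gave 2178 to 2786 higher and 2654 to 3160 lower. The lone pool of an arm was then assumed to vary like the others.

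For e5UTR in IP, DESeq2 called 93 genes higher, and leaving out a column gave 93 to 384 higher and 499 to 644 lower. Without any 1 of the 6 IP columns, genes called higher fell to 109 or less and genes called lower rose to 613 or more. The cause was not tested. Pcsk1n passed in each of these fits (log2 −0.41 to −0.29). Vgf ran from −0.31 to −0.17. For e5UTR in input, genes called higher were 0 with DESeq2 (95 at an unadjusted p under 0.05) and 2 with no filter on low counts, and 0 to 3 higher and 9 to 17 lower without a column. The lowest, 9, came without column 1 of input shGpr151. The interaction gave 38 higher with DESeq2, and 36 to 109 higher and 244 to 379 lower without a column.

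Small values that did not pass changed sign. In the interaction, Scg2 was at −0.01 by library total and −0.05 with DESeq2, and Scg3 at −0.02 with DESeq2. Without a column the interaction ran from −0.25 to 0.25 for Scg2, −0.13 to 0.28 for Scg3, −0.22 to 0.42 for Chgb, −0.24 to 0.03 for Cpe and −0.49 to 0.11 for Vgf. The e5UTR change in IP ran from −0.11 to 0.08 for Scg3, −0.27 to 0.01 for Pcsk1 and −0.06 to 0.09 for Cpe. That in input ran from −0.23 to 0.42 for Chgb, −0.03 to 0.36 for Pcsk1n, −0.11 to 0.18 for Pcsk2, −0.41 to 0.10 for Scg2, −0.20 to 0.17 for Scg3 and −0.28 to 0.32 for Vgf.

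Columns of the same replicate number did not deviate together (r from −0.064 to 0.04 over 18 pairs, and 2 of 12 columns correlated best with their own number). Columns of a group differed by little more than counting, so this comparison could hardly have shown a pairing. The replicate block gave 347 higher and 469 lower for e5UTR in IP and changed no call of the 10 genes in the e5UTR comparisons. For the other comparisons it gave 1 higher and 15 lower (e5UTR in input), 122 and 274 (interaction) and 3094 and 3054 (IP against input). The 10 and 6 pooled input counts of Pcsk1 limit its intervals most.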

Other observations

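The annotated neighbour of Vgf was counted apart from it. Ap1s1, a clathrin adaptor subunit gene, had 139 and 124 pooled counts in input and 933 and 936 in the deeper IP libraries. Scaled by TMM these are 65.1 and 58.4 CPM in input and 162 and 150 CPM in IP.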
